A study of Mus musculus with 9 samples.

Results

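Adult cardiomyocytes, the mature beating muscle cells of the heart, were set against eCSCs, cultured heart cells labelled as cardiac stem cells that carry the receptor c-kit. The comparison used 6 of the 9 Illumina mouse bead arrays in the series, 3 of adult cardiomyocytes and 3 of eCSCs, and took in all detected genes, 10024 of the 19053 with a probe on the array. Both groups came from mice of a ROSA26-EYFP reporter strain on a C57BL/6J background, in which Cre recombinase can switch on a yellow fluorescent protein (YFP). The adult group held normal cardiomyocytes purified from the heart. The eCSCs were purified by the presence of c-kit and the absence of the leukocyte antigen CD45 and were harvested at passage 4, and their culture medium is not given in the labels. The remaining 3 arrays held YFP-positive cardiomyocytes, which the design text describes as sorted from the left ventricle on day 28 after injury by isoproterenol, a drug that overstimulates the heart through its beta-adrenergic receptors. Their sample titles instead name myocytes derived in vitro from c-kit-positive cardiac stem cells, and which account holds was not settled. The mice of the YFP-positive cells received a lentivirus with Cre under c-kit control. These arrays took part only in the normalization, the choice of detected probes and the estimate of the spread. An injection of isoproterenol at 200 mg per kg is written beside all 9 samples, and whether the mice behind the adult cells or the eCSCs received it was not settled. Age is not given for either group, nor is the origin of the 3 samples of a group. Whether they stem from different mice or dishes is unknown, so the p-values rest on a spread between samples that may be technical.

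A level is given below as a normalized log2 signal, and a difference as adult cardiomyocytes minus eCSCs, so that 1 unit is a 2-fold change. A probe was detected on an array when its detection p, from the negative control beads, was under 0.05. A gene was called higher or lower when its adjusted p in limma's moderated test over all 10024 genes was under 0.05. Where a gene was undetected on all 3 arrays of a group, its level there is only a bound, and the fold is written as at least N-fold.

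A working cardiomyocyte contracts for the whole life of the animal. Its cytoplasm is filled with sarcomeres, in which thick filaments of myosin pull on thin filaments of actin, and contraction starts when calcium leaves the sarcoplasmic reticulum and binds troponin. The energy comes mainly from fatty acids burnt in mitochondria, and most adult cardiomyocytes have left the cell cycle. A cell that divides in culture instead has to copy its DNA, build ribosomes, make amino acids and nucleotides and hold itself to the dish with a nonmuscle cytoskeleton. Cells positive for c-kit in the heart have been proposed as progenitors, and the same receptor also marks mast cells.

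Of the 10024 genes, 7540 were called (75.2%), 3590 higher in adult cardiomyocytes (35.8%) and 3950 lower (39.4%). At least 4-fold differences were called higher for 1265 genes (12.6%) and lower for 1051 (10.5%), and 7790 genes (77.7%) had no overlap between the 3 adult and the 3 eCSC arrays. With changes this widespread, any list of genes holds many calls, and the counts below are to be read against these shares. A gene could be tested when only 1 group detected it. One that passed through the adult or the eCSC arrays alone tended to differ by that choice. One that passed through the YFP-positive arrays alone could be at background in both groups compared. The counts and medians of the lists are therefore descriptions. Of the 6639 genes detected on all 6 arrays, 4975 were called, 2266 of them higher. The largest differences were rises: at 64-fold or more, 115 genes were called higher and 17 lower, and at 128-fold or more, 62 and 7.

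Arrays of the same kind were close to each other across the genes tested (r = 0.982 to 0.987 among adult and 0.981 to 0.992 among eCSC arrays), while adult and eCSC arrays correlated at 0.586 to 0.609; genes are not independent replicates. Adult arrays detected 15326 to 15986 of 45281 probes and eCSC arrays 16211 to 17776. The scaling of the arrays matters for small differences. Quantile normalization left the median gene at -0.05, whereas scaling to the array median left it at -0.68 and no normalization between arrays at -0.80, which made 29.4% and 26% of the calls higher in place of 47.6%. Members of a list are therefore also described relative to the median of all genes, and genes whose direction turned are named as such. Adult replicate 1 differed from adult replicates 2 and 3 in its sex-linked transcripts, which were chosen after their values were seen. Xist, transcribed from an inactive X chromosome, stood at 8.45 on adult array 1 and at 4.25 and 4.37 on adult arrays 2 and 3, against 10.12, 10.73 and 10.18 in eCSCs. The Y-linked Eif2s3y stood at 4.25, 7.44 and 7.38 in adult cells and was undetected on all eCSC arrays. Uty, also Y-linked, was not called, at 4.41, 5.79 and 5.23 in adult cells, where 2 arrays detected it, and at 5.02, 4.88 and 4.86 in eCSCs, where all 3 did. The sex of the mice is not given in the labels, and its part in other results was not tested.

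The contractile machinery separated the groups most visibly. Most genes of the thick and thin filaments, of the Z-disc that anchors them, and of calcium cycling were higher in adult cells, and many were at the array's background in eCSCs. The 14 thick filament genes tested and the 20 Z-disc and anchoring genes tested were all called higher, with median differences of 7.29 and 5.38, against -0.05 for all genes. With scaling to the array median or no normalization between arrays 12 of the 14 and 18 of the 20 were called. Of the 14 thick filament genes, 1 was detected on all 6 arrays, and it rose by 1.49. With the mean of each gene's detected probes in place of the brightest, the medians were 4.45 for the thick filament and 5.51 for the Z-disc list. Of 11 thin filament genes, 8 rose and 2 fell (median 5.58). Only 3 of the 11 were detected on all 6 arrays, and of these 1 rose and 2 fell (median -1.60), whereas all 7 Z-disc genes so detected rose (median 4.58).

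Myh6, the fast alpha myosin heavy chain of the adult mouse ventricle, stood at 14.50, 14.84 and 14.72 in adult cells, against 4.44, 4.35 and 4.46 in eCSCs. The 3 adult arrays lay together and far above the eCSC arrays, none of which detected the gene, and the rise was at least 984-fold (log2 difference 10.27 ± 0.16 SE, adjusted p = 1.78e-15). Myh7, the slow beta form that the mouse heart uses before birth and under stress, was at 7.08, 7.55 and 7.06 in adult cells and undetected at 4.31, 4.23 and 4.34 in eCSCs, at least 5.61-fold higher. Both light chains of the ventricle rose with them. Myl3, the essential light chain, had levels of 14.58, 14.78 and 14.69 in adult cells, against 4.29, 4.27 and 4.27 in eCSCs, at least 981-fold (adjusted p = 1.46e-15). Myl2, the regulatory light chain, was at least 845-fold higher. Ttn encodes titin, the spring that spans the sarcomere from Z-disc to M-line. Its levels were 14.11, 14.44 and 14.28 in adult cells and 4.29, 4.32 and 4.25 in eCSCs, at least 740-fold. Mybpc3, a myosin-binding protein mutated in hypertrophic cardiomyopathy, was at least 475-fold higher, and Myom2 of the M-line at least 272-fold.

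On the thin filament, the cardiac actin Actc1 stood at 14.71, 14.81 and 14.58 in adult cells, against 4.26, 4.33 and 4.24 in eCSCs. No eCSC array detected it, and the difference was at least 994-fold (10.42 ± 0.15 SE, adjusted p = 1.46e-15). Skeletal actin, Acta1, was at least 159-fold higher and troponin I, Tnni3, at least 112-fold. Tnnc1, the calcium sensor troponin C, was detected in both groups: 14.94, 14.69 and 14.66 in adult cells and 6.43, 6.32 and 6.73 in eCSCs (8.27 ± 0.17 SE). Tmod1, which caps the slow-growing end of actin, was at least 91.8-fold higher. The tropomyosins went the other way. Tpm1 was at 7.09, 7.63 and 7.79 in adult cells, against 11.48, 11.40 and 11.35 in eCSCs, a fall of 3.91 ± 0.22 SE (adjusted p = 8.53e-10), and its second detected probe also fell, with means of 6.43 in adult cells and 9.95 in eCSCs. Tpm2 fell by 1.60. Tropomyosin genes are spliced into muscle and nonmuscle forms, and which of these forms the probes read was not tested.

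Z-disc genes rose as a block. Csrp3, muscle LIM protein, stood at 14.42, 14.32 and 14.34 in adult cells, against 4.18, 4.18 and 4.26 in eCSCs (at least 786-fold). Tcap, which ties titin ends together, was at least 733-fold higher, Myoz2, a calcineurin-binding Z-disc protein, at least 255-fold and Cmya5 at least 245-fold. The crosslinker Actn2 was at 14.39, 14.28 and 14.50 in adult cells and at 4.57, 4.54 and 4.73 in eCSCs, where 1 of 3 arrays detected it (9.78 ± 0.16 SE). Desmin, Des, the muscle intermediate filament, was detected on all 6 arrays and rose by 7.67 ± 0.18 SE.

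**Figure D1:**
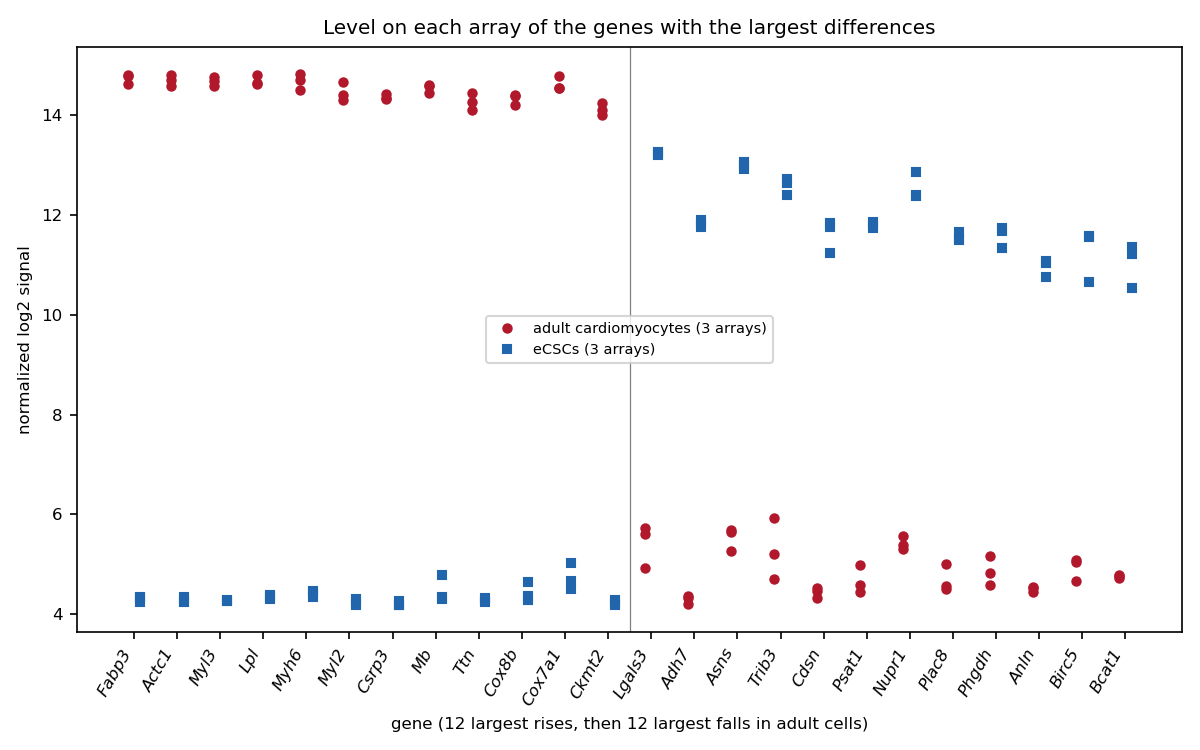
Normalized log2 signal on each array for the 12 largest rises and then the 12 largest falls; red circles are the 3 adult cardiomyocyte arrays and blue squares the 3 eCSC arrays. In every gene shown the groups do not overlap, which was part of how these genes were chosen; Fabp3 stands at 14.63 to 14.80 in adult cells and at 4.23 to 4.34 in eCSCs, and Lgals3 at 4.92 to 5.72 in adult cells and at 13.20 to 13.26 in eCSCs.

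Of 17 calcium cycling genes tested, 15 rose and 1 fell (median 6.07). With the mean of each gene's detected probes in place of the brightest, the counts were the same and the median was 3.39. Ryr2, the channel that releases calcium from the sarcoplasmic reticulum, stood at 11.951, 12.037 and 12.003 in adult cells, against 4.343, 4.197 and 4.367 in eCSCs, at least 152-fold (adjusted p = 6.93e-14). Atp2a2, the pump that takes it back, was at 14.34, 14.71 and 14.88 in adult cells and already clearly detected at 7.96, 7.90 and 8.35 in eCSCs (6.57 ± 0.19 SE). Its relative Atp2a3, a pump of nonmuscle cells, fell by 1.88. The calcium buffers of the reticulum rose as well, Hrc at least 670-fold and Casq2 at least 194-fold, as did Jph2, which holds the reticulum near the surface membrane (at least 81.3-fold), and the sodium-calcium exchanger Slc8a1 (6.74 ± 0.18 SE). Sorcin, Sri, a widely expressed calcium-binding protein, was the member that fell: 8.357, 8.277 and 7.988 in adult cells, against 10.999, 11.137 and 10.952 in eCSCs.

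All 17 ion channel and pump genes tested rose (median 2.98). Scn4b, a sodium channel subunit, was at least 41.9-fold higher, and Kcnd2, a channel of the transient outward current of mouse cardiomyocytes, at least 12.4-fold. Kcnh2, whose channel helps to end the action potential, was detected in both groups at 9.42, 9.28 and 9.63 in adult cells and 6.14, 6.19 and 5.78 in eCSCs. Intercalated discs couple cardiomyocytes end to end. Of 13 such genes 9 rose and 1 fell (median 1.53), with Nrap at least 199.98-fold, the desmosomal Pkp2 at least 82.1-fold and Dsg2 at least 32.3-fold higher. The gap junction protein Gja1, known as connexin 43, was at 13.59, 13.43 and 13.53 in adult cells but also at 11.37, 11.10 and 10.50 in eCSCs, a rise of 2.53 ± 0.21 SE. Connexin 45, Gjc1, fell by 0.92 ± 0.20 SE.

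Muscle cells also turn over sarcomere proteins through their own ubiquitin ligases, and 18 of 24 turnover and autophagy genes rose while 3 fell (median 2.87). Asb2, a ligase subunit that targets filamins, stood at 13.47, 13.60 and 13.45 in adult cells, against 4.24, 4.34 and 4.32 in eCSCs (at least 434-fold). Fbxo40 was at least 74.1-fold and Trim63, or MuRF1, at least 28.7-fold higher. The general autophagy genes Becn1 and Sqstm1 fell, by 1.17 and 1.47.

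Transcription factors of the heart were higher in adult cells too. Of 12 tested, 11 rose and 1 fell (median 2.38). Nkx2-5 stood at 8.78, 8.90 and 8.83 in adult cells and at 4.67, 5.08 and 4.82 in eCSCs, where 2 arrays detected it (3.98 ± 0.18 SE, adjusted p = 5.81e-11). Gata4 was at 6.15, 6.28 and 6.79 in adult cells and undetected in eCSCs (at least 3.16-fold), whereas Gata6 was detected in both at 10.26, 10.58 and 9.97 in adult cells and 8.03, 7.95 and 7.65 in eCSCs. Myocd, a coactivator of serum response factor, was at least 38-fold and Hopx at least 131-fold higher. Isl1, a marker of embryonic cardiac progenitors, was the member that fell: undetected at 4.28, 4.23 and 4.60 in adult cells and detected at 6.37, 6.24 and 6.43 in eCSCs, at least 2.8-fold lower.

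Regulators of energy metabolism followed, with 9 of 13 higher and 1 lower (median 3.44), though of the 5 detected on all 6 arrays 2 rose and 1 fell. Ppargc1a, the coactivator PGC-1 alpha that drives mitochondrial biogenesis, stood at 10.41, 10.30 and 10.40 in adult cells, against 4.33, 4.31 and 4.31 in eCSCs, at least 49.4-fold (adjusted p = 8.08e-13). Perm1, a muscle regulator that acts downstream of it, was at least 210-fold higher. Its nuclear receptor partner Esrra was detected in both groups at 10.88, 10.98 and 10.69 in adult cells and 7.25, 7.46 and 7.51 in eCSCs. Another receptor of that family, Esrrg, was at least 16.7-fold higher. Nrf1, a general activator of respiratory genes, fell by 1.03 ± 0.23 SE.

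The fuel pathways moved nearly as a whole. Of 30 genes of fatty acid uptake and oxidation 29 rose and 1 was not called (median 3.99). Fabp3, the heart's fatty acid binding protein, stood at 14.80, 14.79 and 14.63 in adult cells, against 4.23, 4.32 and 4.34 in eCSCs, at least 1021-fold (10.44 ± 0.16 SE). Lpl, the lipase that frees fatty acids from lipoproteins, was at 14.63, 14.80 and 14.64 in adult cells and 4.34, 4.39 and 4.30 in eCSCs, at least 987-fold. Cpt1b, which admits long-chain fatty acids to the mitochondrion, was at 12.20, 12.50 and 12.63 in adult cells, against 5.15, 4.73 and 5.12 in eCSCs, where 2 of 3 arrays detected it. Plin5, which coats lipid droplets in oxidative tissue, was at least 74.9-fold higher.

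Ketone body and branched-chain amino acid breakdown rose in 16 of 17 genes and fell in 1 (median 2.52). Bdh1, which oxidizes beta-hydroxybutyrate, was at 10.24, 10.07 and 10.26 in adult cells and undetected at 4.23, 4.28 and 4.33 in eCSCs (at least 43.5-fold). Oxct1, the next step of ketone use, was detected in both, at 13.500, 13.276 and 13.214 in adult cells and 9.998, 10.299 and 8.847 in eCSCs. Of 21 genes of pyruvate entry and the citric acid cycle 20 rose and 1 fell (median 2.42), and each of the 21 was detected on all 6 arrays. Ogdh, the 2-oxoglutarate dehydrogenase subunit that binds its substrate, stood at 12.98, 12.99 and 13.49 in adult cells, against 7.34, 7.40 and 7.69 in eCSCs (5.68 ± 0.20 SE). Idh3a rose by 4.18, while Idh3b, another subunit of the same isocitrate dehydrogenase, fell by 1.74 ± 0.17 SE, with levels of 9.378, 9.386 and 9.188 in adult cells and 10.9999, 10.8908 and 11.2937 in eCSCs.

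Respiratory chain genes were transcribed in both cell types and rose by a few fold. In complex I, 32 of 33 nuclear genes tested rose and 1 was not called (median 2.13, highest 3.62 for Ndufa11). Ndufa11 had levels of 13.11, 13.16 and 12.91 in adult cells and 9.44, 9.45 and 9.43 in eCSCs. In complexes III to V, 31 of 34 rose and 2 fell (median 2.07). The heart and muscle subunits of cytochrome oxidase were at the top. Cox7a1 stood at 14.79, 14.56 and 14.56 in adult cells, against 4.50, 4.67 and 5.02 in eCSCs, where 1 array detected it. Cox8b was at least 772-fold higher. Cox6a2 was detected in both at 14.78, 14.88 and 14.84 in adult cells and 9.09, 9.17 and 9.02 in eCSCs (5.74 ± 0.15 SE). The ubiquitous Cox6a1 and the complex III subunit Uqcrq fell, by 0.93 and 0.91. Proteins of the mitochondrial ribosome, which translates the genes of mitochondrial DNA, lay nearer to the median of all genes. Of 42 tested, 23 rose and 8 fell, with differences from -1.31 to 1.65, and their median of 0.46 became -0.23 with scaling to the array median and -0.36 with no normalization between arrays. The majority turned with it, to 6 higher and 17 lower with median scaling and 3 and 18 with no normalization. Mrps23 rose by 1.65 ± 0.17 SE and Mrps22 fell by 1.31 ± 0.19 SE.

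Creatine kinases, which buffer ATP near the myofibrils, were among the large rises. Ckmt2, the mitochondrial form of muscle, stood at 14.26, 14.11 and 14.02 in adult cells, against 4.28, 4.22 and 4.19 in eCSCs (at least 668-fold), and the cytosolic Ckm was at least 377-fold higher. Of 12 energy transfer genes 9 rose and 3 were not called (median 1.61). Myoglobin, Mb, which stores oxygen, was at 14.61, 14.58 and 14.46 in adult cells and at 4.79, 4.31 and 4.34 in eCSCs, with 1 eCSC array detecting it. Glycolysis and glycogen genes rose in 17 of 22 and fell in 3 (median 1.82). Slc2a4, the insulin-responsive glucose transporter GLUT4, was at least 92.4-fold higher, while Slc2a1, the transporter GLUT1 of growing cells, fell by 1.00 ± 0.25 SE, with 8.52, 8.51 and 8.35 in adult cells and 9.66, 9.91 and 8.79 in eCSCs. Gapdh did not pass the test (0.17 ± 0.18 SE), at 13.37, 13.11 and 13.63 in adult cells and 13.34, 13.24 and 13.03 in eCSCs.

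**Figure D2:**
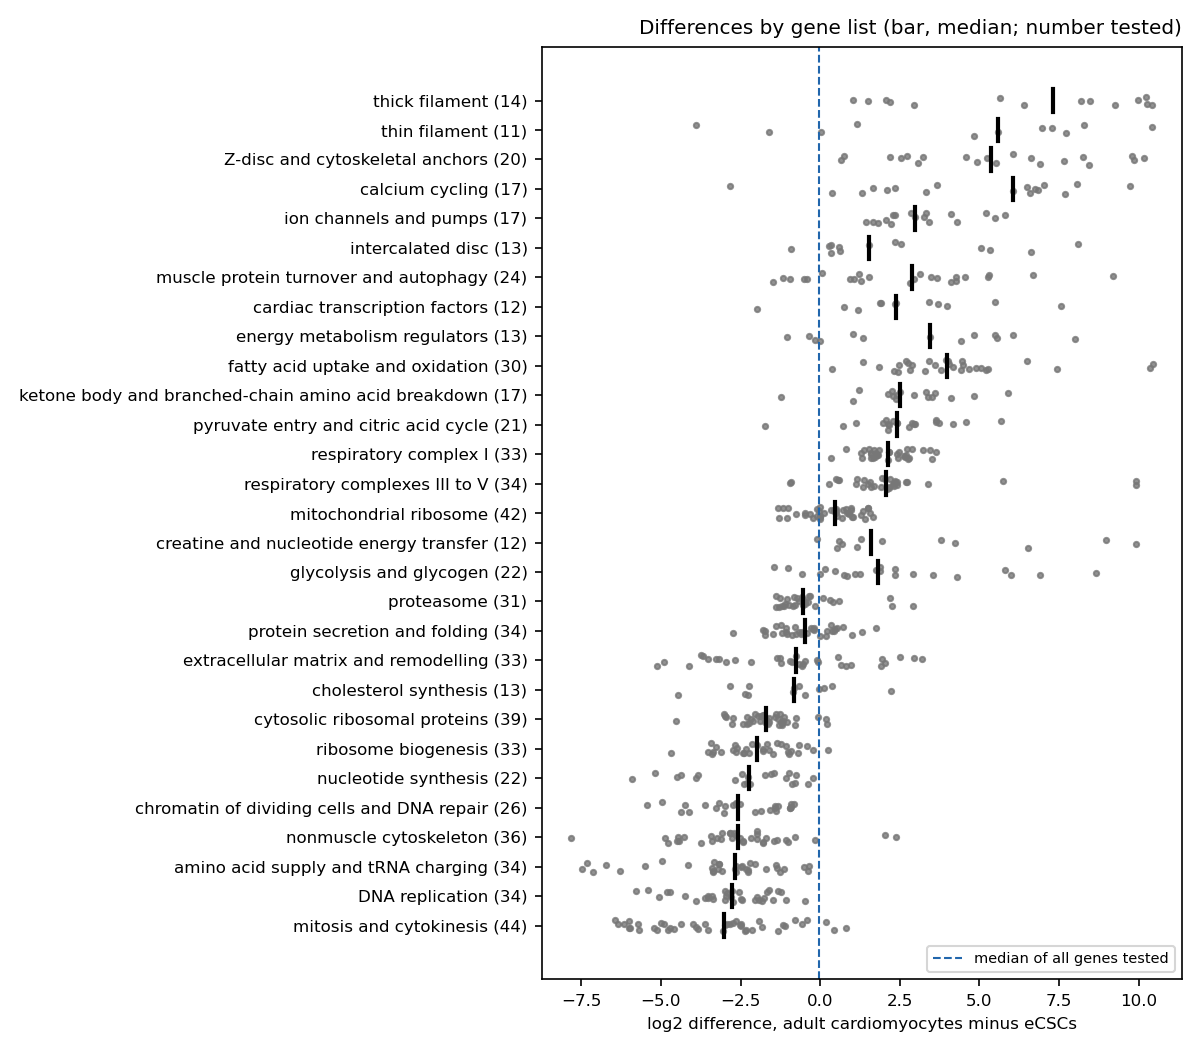
Log2 difference, adult cardiomyocytes minus eCSCs, for each gene tested (grey points) of 29 lists on the horizontal axis, with the list median as a black bar and the number of genes tested in brackets; the dashed line is the median of all genes (-0.05). Lists of the sarcomere, calcium cycling and fuel use lie to the right, up to a median of 7.29 for the thick filament, and lists of cell division and biosynthesis to the left, down to -3.03 for mitosis and cytokinesis.

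Many proteins exist in a heart or muscle form and a general form. Here 25 pairs of related genes were compared, 1 taken as the muscle form and the other as the general form. How widely each form is expressed in other tissues was not tested. Both genes were tested in 18 pairs. In 13 of these the muscle form rose and the general form fell, in 4 both rose, and in 1 the muscle form rose while the general form was not called. All 22 muscle forms tested rose (median 7.55), and of 21 general forms 14 fell and 5 rose (median -1.25). The translation factor pair divided in this way. Eef1a2 stood at 13.34, 13.25 and 13.61 in adult cells, against 4.56, 4.41 and 4.59 in eCSCs. Eef1a1 stood at 11.26, 11.45 and 11.90 in adult cells, against 14.67, 14.67 and 14.47 in eCSCs. Desmin and vimentin divided in the same way, with Vim at 7.59, 8.11 and 8.44 in adult cells and 13.18, 13.21 and 12.38 in eCSCs (-4.88 ± 0.25 SE). Alpha-actinin did too, Actn1 having fallen by 3.25 beside the rise of Actn2. Phosphoglycerate mutase rose at least 332-fold in its muscle form Pgam2 and fell by 1.45 in Pgam1. Adssl1 and Adss, the muscle and general adenylosuccinate synthases of purine metabolism, differed by 5.05 and -4.50. Branched-chain aminotransferase rose by 3.33 in its mitochondrial form Bcat2. Its cytosolic form Bcat1 was undetected in adult cells and at least 72.5-fold lower there. The pairs in which both rose were Ckm and Ckb, Cox7a1 and Cox7a2, Pfkm and Pfkp, and Pygm and Pygl. Lactate dehydrogenase Ldhb rose by 1.23, and Ldha was nearly level between the groups (-0.01 ± 0.20 SE, adjusted p = 0.967). Filamin is uncertain: the probe used for Flnc rose by 0.76, but its other detected probe was at -0.78 and the mean of both at -0.01. Beta-actin, Actb, is too, since 3 of its 5 detected probes fell and 2 rose.

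**Figure D3:**
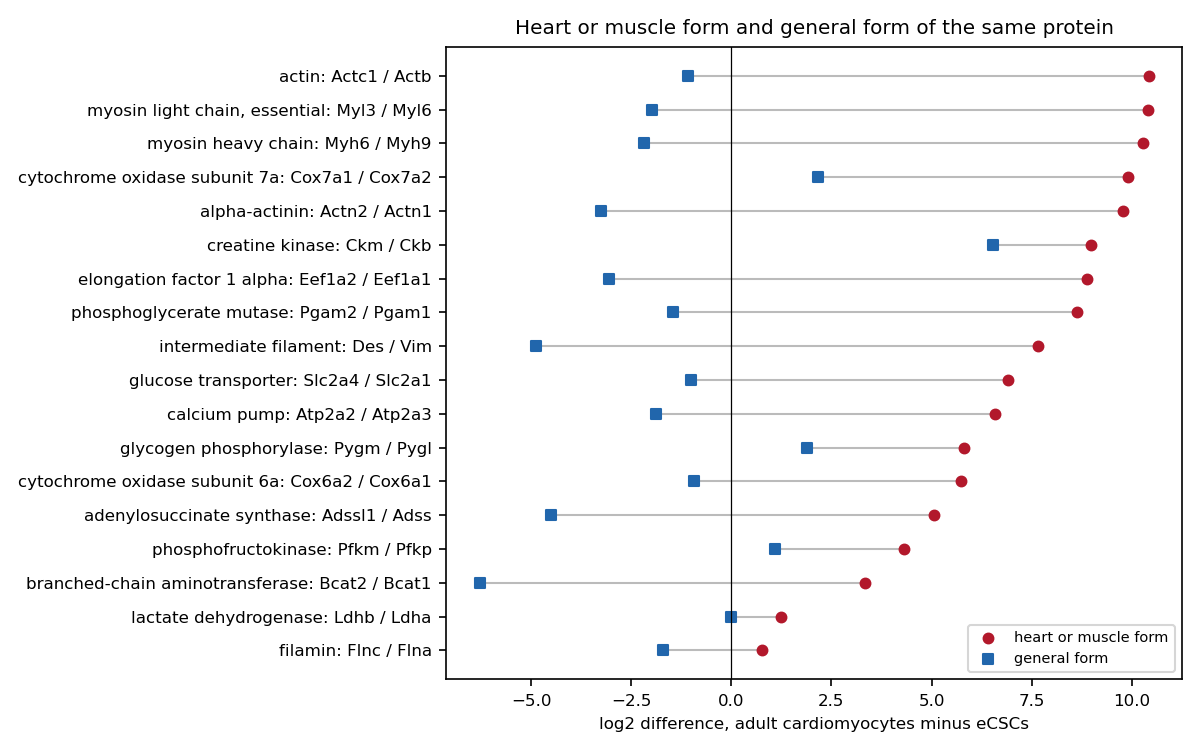
Log2 difference, adult cardiomyocytes minus eCSCs, of the heart or muscle form (red circles) and the general form (blue squares) of 18 protein pairs, with a grey line joining the genes of a pair. All 18 muscle forms lie right of 0 and 13 general forms lie left of it among called genes, with Ldha at -0.01.

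Cell division ran the opposite way. Of 34 DNA replication genes all 34 fell (median -2.77), of 44 genes of mitosis and cytokinesis 40 fell and 1 rose (median -3.03), of 26 genes of chromatin in dividing cells and DNA repair all 26 fell (median -2.58), and of 22 nucleotide synthesis genes 20 fell and 2 were not called (median -2.24). Among members detected on all 6 arrays, all 19 replication genes, all 13 chromatin and repair genes and 16 of 18 nucleotide synthesis genes fell (medians -2.76, -1.84 and -1.97). Only 8 mitosis genes were so detected, of which 4 fell and 1 rose (median -0.79). In adult cells many lay at the array's background: 27 of the 44 mitosis genes were detected on none of the adult arrays and on all 3 eCSC arrays, a pattern that 7.49% of all genes showed. The reverse, detection on all 3 adult arrays and no eCSC array, was seen in 10 of the 14 thick filament genes and in 8.69% of all genes.

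Cdk1, the kinase that starts mitosis, stood at 4.27, 4.32 and 4.63 in adult cells, all undetected, against 10.56, 10.22 and 10.45 in eCSCs, at least 46.7-fold lower in adult cells (-6.00 ± 0.20 SE, adjusted p = 3.63e-12). Anln, anillin, a scaffold of the ring that divides the cell, was at 4.45, 4.53 and 4.54 in adult cells, against 11.04, 11.09 and 10.76 in eCSCs, at least 68.6-fold lower. The chromosomal passenger gene Birc5 fell by 6.34. Another, Cdca8, was detected on none of the adult arrays and on every eCSC array, at least 53.7-fold lower in adult cells. Prc1, which bundles the microtubules of the midzone, fell by 6.00. Bub3, of the spindle checkpoint, rose by 0.81, a difference that turned to -0.02 with scaling to the array median and -0.15 with no normalization between arrays. The replicative helicase fell with them. Mcm5 stood at 5.80, 5.82 and 5.75 in adult cells, against 11.07, 11.20 and 11.30 in eCSCs (-5.40 ± 0.20 SE), and the loading factors Mcm10 and Cdt1 fell by 5.77 and 5.07. Tyms, which makes thymidylate, was at 5.22, 5.34 and 4.65 in adult cells and 10.55, 10.70 and 9.52 in eCSCs, and Rrm2, of ribonucleotide reductase, was at least 12.2-fold lower. Uhrf1, which maintains DNA methylation after replication, fell by 5.43, and the histone methyltransferase Ezh2 by 4.12.

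The eCSC arrays were not alike in these genes. Mean levels over the mitosis list were 4.92, 4.91 and 4.94 on adult arrays 1, 2 and 3, against 8.42, 8.29 and 7.95 on eCSC arrays 1, 2 and 3. Over the nucleotide synthesis list they were 6.81, 6.78 and 6.66 in adult cells, against 9.29, 9.12 and 8.90 in eCSCs. eCSC replicate 3 was lowest in both lists, and every eCSC array stayed far above every adult array. Birc5 shows it in a single gene, at 4.67, 5.08 and 5.04 in adult cells and 11.56, 11.59 and 10.66 in eCSCs.

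The promoters of these genes are shown because their short sequence elements differed between the lists. RefSeq promoter windows of 250 bases before to 50 bases after the start were matched to 8102 of the genes tested, 10441 windows in all. The cell cycle homology region, TTTGAA on either strand, an element bound by the complex that restricts mitotic genes to dividing cells, was found in 71.4% of 42 windows of the mitosis list, 25.0% of 32 windows of the replication list and 11.7% of all windows. The E2F letters, TTCCCGC or the variants TTGGCGC and also TTCGCGC on either strand, were found in 56.2% of the replication windows, 21.4% of the mitosis windows and 14.2% of all. Among all genes with at least a 4-fold call, TTTGAA stood in 10.4% of windows of those higher in adult cells and in 16.3% of those lower, and the E2F letters in 10.7% and 20.5%. E2F letters were absent from the windows of the thick filament (16), thin filament (11) and Z-disc (23) lists. TTTGAA was not absent there, and stood in 3 of 16, 1 of 11 and 3 of 23 windows. In the thick filament list its share, 18.8%, was above that of all windows and equal to that of the CArG box. So few windows cannot show whether TTTGAA was rarer in muscle lists than in all windows. The same lists carried the CArG box, the element of serum response factor, in 18.8%, 18.2% and 17.4% of windows, against 1.52% of all. They had little CpG, with median observed over expected ratios of 0.16, 0.26 and 0.31, against 0.75 for all windows and 0.87 for both division lists. A match is a description of letters only, and windows of 1 gene can overlap. The windows below, from build GRCm38.p6 and read 5′ to 3′ on the gene's strand, were chosen after their letters were seen, and capitals mark the elements. Cdk1 (chr10:69352863-69353162, minus strand) holds both kinds, E2F letters upstream and then TTTGAA, and Mcm5 (chr8:75109259-75109558, plus strand) holds E2F letters that overlap. Anln (chr9:22389157-22389456, minus strand) holds TTTGAA on both strands, and Cdc20 (chr4:118437294-118437593, minus strand), an activator of mitotic exit whose level fell by 5.71, and Cdca8 (chr4:124936868-124937167, minus strand) hold it in the forward sense. The windows of Birc5 and Mcm10 held neither.
Cdk1: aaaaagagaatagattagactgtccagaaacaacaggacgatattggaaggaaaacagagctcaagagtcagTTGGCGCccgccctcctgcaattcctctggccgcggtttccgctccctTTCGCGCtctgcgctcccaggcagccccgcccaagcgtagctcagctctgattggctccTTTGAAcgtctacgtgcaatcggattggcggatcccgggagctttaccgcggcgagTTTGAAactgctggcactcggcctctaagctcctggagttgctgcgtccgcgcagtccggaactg
Mcm5: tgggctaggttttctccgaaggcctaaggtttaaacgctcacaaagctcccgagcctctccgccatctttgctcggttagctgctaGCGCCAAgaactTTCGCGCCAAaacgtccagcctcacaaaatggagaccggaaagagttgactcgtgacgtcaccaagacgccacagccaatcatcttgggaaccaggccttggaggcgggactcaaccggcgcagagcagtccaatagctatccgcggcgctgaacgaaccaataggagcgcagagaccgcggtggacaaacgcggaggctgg
Anln: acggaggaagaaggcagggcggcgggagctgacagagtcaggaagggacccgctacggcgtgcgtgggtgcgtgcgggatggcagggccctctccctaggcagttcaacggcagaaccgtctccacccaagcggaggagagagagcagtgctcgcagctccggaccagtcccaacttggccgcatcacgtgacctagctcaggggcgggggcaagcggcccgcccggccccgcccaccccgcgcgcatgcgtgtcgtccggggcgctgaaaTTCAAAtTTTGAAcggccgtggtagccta
Cdc20: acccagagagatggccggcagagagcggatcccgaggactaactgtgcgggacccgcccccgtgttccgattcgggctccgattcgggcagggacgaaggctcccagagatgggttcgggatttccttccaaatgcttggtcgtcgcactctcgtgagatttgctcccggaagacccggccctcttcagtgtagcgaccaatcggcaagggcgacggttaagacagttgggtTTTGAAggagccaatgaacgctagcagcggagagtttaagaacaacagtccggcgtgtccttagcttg
Cdca8: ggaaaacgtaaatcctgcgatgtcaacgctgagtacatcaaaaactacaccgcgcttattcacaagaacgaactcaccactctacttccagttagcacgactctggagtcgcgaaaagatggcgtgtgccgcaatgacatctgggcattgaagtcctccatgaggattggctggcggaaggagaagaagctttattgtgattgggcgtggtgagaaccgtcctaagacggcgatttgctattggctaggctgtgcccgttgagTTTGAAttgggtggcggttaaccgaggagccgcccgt

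For comparison, the windows of the muscle genes Actc1 (chr2:114052826-114053125, minus strand) and Myl3 (chr9:110763428-110763727, plus strand) hold a CArG box, in capitals, and that of Actc1 also the letters TATAAA, which stand in 7.71% of all windows on either strand. The windows of Myh6 and Myl2, searched in the same way, held no CArG box.
Actc1: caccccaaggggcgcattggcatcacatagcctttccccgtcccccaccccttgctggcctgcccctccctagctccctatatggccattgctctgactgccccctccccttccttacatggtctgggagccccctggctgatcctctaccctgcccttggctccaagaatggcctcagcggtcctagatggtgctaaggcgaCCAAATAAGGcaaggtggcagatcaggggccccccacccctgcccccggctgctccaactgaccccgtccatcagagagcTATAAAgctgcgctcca
Myl3: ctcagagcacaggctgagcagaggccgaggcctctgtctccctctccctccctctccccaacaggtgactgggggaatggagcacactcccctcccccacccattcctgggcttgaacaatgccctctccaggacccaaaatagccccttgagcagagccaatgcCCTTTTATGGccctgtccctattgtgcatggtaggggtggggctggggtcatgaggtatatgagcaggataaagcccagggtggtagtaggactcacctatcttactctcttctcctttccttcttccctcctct

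**Figure D4:**
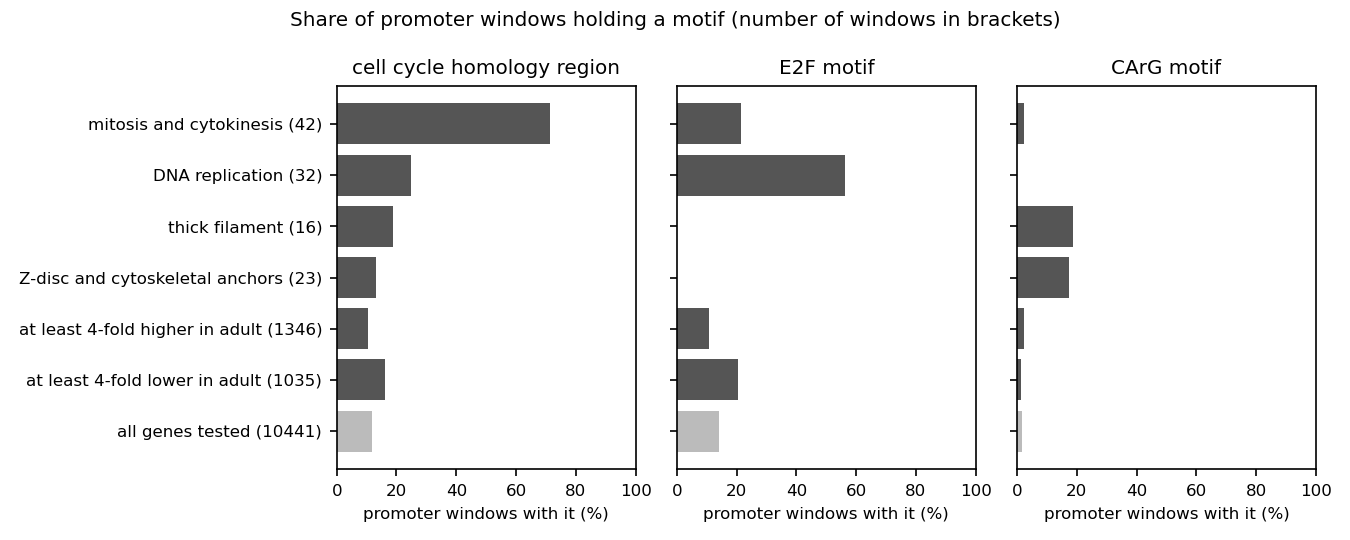
Percent of RefSeq promoter windows that hold the cell cycle homology region, the E2F letters or the CArG box, for 4 gene lists, for the genes called at least 4-fold higher or lower in adult cells and for all genes tested (pale bar), with the number of windows in brackets. The first element is most frequent in the mitosis list (71.4%), E2F in the replication list (56.2%), and the CArG box in the thick filament (18.8%) and Z-disc (17.4%) lists.

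Genes that start or hold back the cycle split. Of 23 tested, 15 fell and 6 rose (median -1.81), but of the 11 detected on all 6 arrays 5 fell and 5 rose (median 0.11). Ccnd1, the cyclin that answers growth factors, stood at 9.40, 10.16 and 10.19 in adult cells, against 12.88, 12.62 and 12.64 in eCSCs (-2.79 ± 0.22 SE), and Ccnd2 fell by 1.27. Ccnd3 rose by 0.72, but stood at -0.15 with scaling to the array median and -0.28 with no normalization between arrays. E2f1 fell by 4.65, and Myc was at least 10-fold lower, undetected at 4.37, 4.36 and 4.31 in adult cells and at 7.82, 7.55 and 9.19 in eCSCs. Among the inhibitors of cyclin-dependent kinases, Cdkn1c, an imprinted gene, was at 8.97, 9.49 and 9.41 in adult cells and undetected at 4.29, 4.25 and 4.31 in eCSCs, at least 23.3-fold higher. Cdkn2a and Cdkn2b, which accumulate in cultured and ageing cells, fell by 2.18 and 3.51, with Cdkn2a at 4.31, 4.28 and 5.44 in adult cells and 6.62, 6.83 and 7.11 in eCSCs. Rb1, the brake on E2F, rose by 1.61 ± 0.19 SE, and the p53 target Ccng1 by 4.22 ± 0.19 SE. Cdkn2c and Cdkn2d rose by 0.47 and 0.76, yet turned to -0.50 and -0.12 with no normalization between arrays. Cdkn1a, another p53 target, was not called (-0.75 ± 0.33 SE, adjusted p = 0.0516), and its 3 detected probes lay at -0.75, 0.02 and 0.62.

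The supply side of growth fell with division. Of 33 ribosome biogenesis genes 30 fell and 3 were not called (median -1.99), and of 39 cytosolic ribosomal proteins 36 fell and 3 were not called (median -1.69), each of the 39 detected on all 6 arrays. Nop56, a core protein of the particles that modify ribosomal RNA, stood at 7.58, 7.56 and 7.41 in adult cells, against 12.37, 12.06 and 12.21 in eCSCs (-4.69 ± 0.18 SE). Rplp0 of the ribosomal stalk fell by 4.51, and Rps6, a target of growth signalling, by 3.00, at 10.31, 10.90 and 10.77 in adult cells and 13.48, 13.63 and 13.88 in eCSCs. Ribosomal protein genes have many near-identical pseudogene copies, so that their probes may read more than 1 source.

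Amino acid supply and tRNA charging held several of the largest falls, with 32 of 34 genes lower and 2 not called (median -2.67). Asns, asparagine synthetase, a target of the amino acid stress factor ATF4, stood at 5.70, 5.26 and 5.64 in adult cells, against 13.07, 13.01 and 12.93 in eCSCs (-7.47 ± 0.20 SE, adjusted p = 2.42e-13). Phgdh, the first enzyme of serine synthesis, was at 4.83, 5.16 and 4.58 in adult cells, against 11.68, 11.35 and 11.75 in eCSCs. Psat1, the next enzyme of that pathway, fell by 7.14 ± 0.23 SE, and for both genes 1 of 3 adult arrays detected the probe. Trib3, a pseudokinase induced by the same stress pathway, fell by 7.31, and Mthfd2, the mitochondrial folate enzyme, by 5.92. Slc7a11, the cystine importer, was at least 30-fold lower. In cholesterol synthesis 9 of 13 genes fell and 1 rose (median -0.84), with Sqle down by 4.45 ± 0.28 SE and Hsd17b7 up by 2.23 ± 0.26 SE.

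The nonmuscle cytoskeleton and its partners at the membrane fell in 33 of 36 genes and rose in 2 (median -2.59). Lgals3, galectin 3, had the largest fall among the genes named by the rule: 4.92, 5.60 and 5.72 in adult cells, against 13.20, 13.26 and 13.22 in eCSCs (-7.81 ± 0.27 SE, adjusted p = 3.79e-12). Cd44, a hyaluronan receptor, fell by 4.79, the tropomyosin Tpm3 by 4.50 and S100a11 by 4.44. Which spliced forms of Tpm3 were read was not tested. Nonmuscle myosin Myh9 stood at 8.32, 9.15 and 8.97 in adult cells, against 11.17, 11.11 and 10.71 in eCSCs. The members that rose were the light chains Myl9 (2.39) and Myl12a (2.02). Other large falls outside the lists were Adh7, an alcohol dehydrogenase, at least 126-fold lower, Cdsn, corneodesmosin, at least 108-fold lower, and the stress gene Nupr1, which fell by 7.13 ± 0.30 SE. Plac8 fell by 6.87 ± 0.34 SE, with 1 adult array detecting it.

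Matrix genes went both ways, 18 of 33 lower and 9 higher (median -0.76). Fn1, fibronectin, was at 5.10, 5.71 and 5.90 in adult cells, against 9.89, 10.18 and 11.34 in eCSCs (-4.90 ± 0.33 SE), Timp1 fell by 5.13 and the surface protease Mmp14 by 3.69. Basement membrane collagens rose, Col4a1 by 1.92 and Col4a2 by 2.52, as did Timp4 (at least 6.66-fold). Ccn2 rose by 0.80 ± 0.24 SE and turned to -0.09 with no normalization between arrays, and Col6a2 by 0.64, which turned to -0.07. Of 33 growth factors and secreted signals 13 rose and 11 fell (median 0.14), but 11 rose and 13 fell with scaling to the array median (median -0.26). The natriuretic hormones of the heart rose: Nppa was at 12.17, 11.58 and 11.67 in adult cells and undetected in eCSCs (at least 134-fold), and Nppb stood at 12.35, 12.29 and 13.20 in adult cells, against 7.71, 7.19 and 6.91 in eCSCs. Fgf1 and Cxcl12 were higher in adult cells as well, by 5.17 and at least 81.7-fold. Fgf7 fell by 5.41, and Nrg1, a growth factor for cardiomyocytes, was at least 8.05-fold lower, undetected in adult cells and at 7.70, 7.32 and 8.59 in eCSCs. Inhba fell by 4.12, with the highest eCSC level, 9.62, on replicate 3.

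In protein secretion and folding 17 of 34 genes fell and 5 rose (median -0.49), and in the proteasome 19 of 31 fell and 5 rose (median -0.55). The 5 proteasome members that rose were Psmb8, Psmb9 and Psmb10, subunits of the immunoproteasome, and the activators Psme1 and Psme2. Psmb8 was at 7.16, 7.31 and 7.54 in adult cells and undetected at 4.42, 4.46 and 4.34 in eCSCs (at least 6.02-fold), and Psme1 rose by 2.20. Psmb10 and Psme2 rose by 0.40 and 0.59 and turned to -0.41 and -0.33 with scaling to the array median. Psmb10 lost its call when any adult array or eCSC array 2 or 3 was left out, with adjusted p of 0.059 to 0.17 in limma. Of the secretory genes that rose, Sec31a (0.71) and Lman1 (0.53) turned in the same way, to -0.18 and -0.40. Antioxidant genes also split, 10 of 20 higher and 7 lower (median 0.41). With scaling to the array median 4 were higher and 9 lower (median -0.18), and the counts were the same with no normalization between arrays. Sod2, the superoxide dismutase of mitochondria, rose by 2.28 and catalase, Cat, by 2.40, while Hmox1, an inducible heme-degrading enzyme, was at least 19.1-fold lower, with 4.68, 4.34 and 4.42 in adult cells and 8.83, 8.94 and 9.58 in eCSCs.

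The labels were checked against defining genes. Contractile genes set the adult group apart as cardiomyocytes, as described above. Kit, the gene of the receptor used to purify the eCSCs, was undetected on all 6 arrays, at 4.77, 4.76 and 4.57 in adult cells and 4.17, 4.24 and 4.23 in eCSCs (0.49 ± 0.27 SE, adjusted p = 0.119). The array has a single Kit probe here, and other transcripts abundant in heart, such as Slc25a4 and Sdha (named after their values were seen), also had no detected probe, so that an undetected probe does not show an absent transcript. Of 20 stem, progenitor and mesenchymal surface genes 11 rose and 7 fell (median 0.51). The direction of this count did not hold: with scaling to the array median or no normalization between arrays 6 were higher and 8 lower (median -0.14 with the first), without background correction 7 and 7, and of the 11 detected on all 6 arrays 4 rose and 6 fell (median -1.20). Vcam1 fell by 3.83 and the pluripotency factor Klf4 by 2.38, while the mesenchymal marker Nt5e, or CD73, was at least 10.2-fold higher in adult cells and undetected in eCSCs.

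Markers of other heart cells also moved with the adult group. The 19 endothelial markers tested were all called higher (median 3.51), with mean levels over the list of 8.27, 8.70 and 8.71 on the adult arrays and 5.43, 5.40 and 5.48 on the eCSC arrays. Of the 19, 16 were called with scaling to the array median, 15 with no normalization between arrays and 16 to 18 with 1 array left out. Pecam1, an adhesion molecule of endothelium, was at 7.91, 8.68 and 8.24 in adult cells and undetected in eCSCs (at least 11.6-fold). All 11 smooth muscle and pericyte markers rose (median 2.28). The list means were 7.33, 7.58 and 7.90 in adult cells, against 4.65, 4.57 and 4.69 in eCSCs. The pericyte gene Rgs5 was at least 22.3-fold higher. Abcc9, which rose by 5.50, stands both in this list and in the ion channel and pump list. Of 20 leukocyte markers 13 rose and 1 fell (median 1.13; 5.90, 6.29 and 6.40 in adult cells, against 4.68, 4.73 and 4.78 in eCSCs). The macrophage lysozyme Lyz2 was at least 10.8-fold higher. Globin genes Hbb-bs and Hba-a1 rose by 5.93 and 5.60, 2 of the 5 erythroid genes tested, while Alas2 and Slc4a1 were not called. Of 7 mast cell markers limma called 0, and 0 at an unadjusted p under 0.05. Of these 7, 5 were undetected on all adult arrays and 5 on all eCSC arrays. Levels at background cannot show whether mast cell genes differed between the groups. Fibroblast markers divided evenly, 7 higher and 7 lower of 16 (median -0.11), or 5 and 9 with scaling to the array median: Dcn, decorin, stood at 10.53, 11.28 and 11.06 in adult cells, against 4.57, 4.40 and 5.17 in eCSCs, whereas Col1a1 stood at 4.577, 5.112 and 4.776 in adult cells, against 7.844, 8.002 and 8.130 in eCSCs. Few members of these lists were detected on all 6 arrays. The 5 endothelial markers so detected all rose (median 1.31), as did the 1 smooth muscle and pericyte marker. The 1 leukocyte marker so detected was not called, and of 4 fibroblast markers 2 fell and 0 rose. Adult replicate 1 had the lowest level of the endothelial, smooth muscle and leukocyte lists. In bulk samples fewer cells of a type and less RNA per cell cannot be told apart, and the part of these other cells in the matrix, growth factor, immunoproteasome and surface gene results was not tested. Of 8 adipocyte markers with a probe only 2 were tested, the others having no probe detected on all 3 arrays of a group. Both rose, Cidea at least 49.7-fold and Pparg at least 4.9-fold. Their mean levels were 8.42, 8.65 and 9.06 in adult cells and 4.29, 4.35 and 4.35 in eCSCs. Their part in the fatty acid results was not tested.

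Epicardial and mesothelial markers were 2 higher and 1 lower of 8, and epithelial markers 1 higher and 1 lower of 6. The mesothelial gene Msln was undetected in adult cells and at 8.91, 8.71 and 8.26 in eCSCs, and the keratin Krt14 was undetected in adult cells and at 6.76, 6.51 and 5.31 in eCSCs. The members that rose were near background, Tcf21 at 4.72, 5.26 and 5.21 in adult cells and undetected in eCSCs, Aldh1a2 by 0.47 and Krt7 by 0.47, and none of these 3 was called with scaling to the array median. Of the same lists, Krt8, Krt18 and Upk3b were not called. Of 8 Schwann and neural markers with a probe only 3 were tested, of which 1 rose and 1 fell. Of 11 skeletal muscle markers with a probe only 2 were tested, and both rose.

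**Figure D5:**
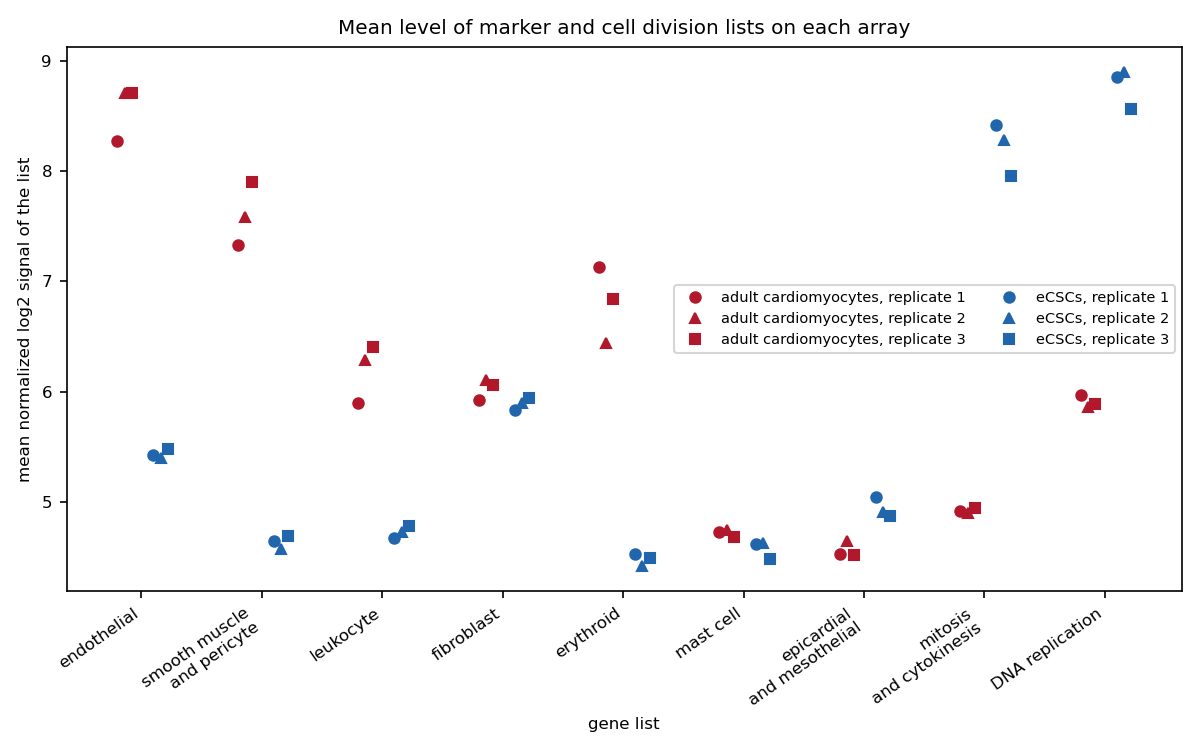
Mean normalized log2 signal over the tested genes of each marker or cell division list, for each adult cardiomyocyte array (red) and each eCSC array (blue), with symbols for the replicate number. Endothelial markers lie at 8.27 to 8.71 in adult cells and 5.40 to 5.48 in eCSCs, fibroblast markers overlap, and the mitosis list lies at 4.91 to 4.94 in adult cells and 7.95 to 8.42 in eCSCs.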

How the data were processed

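Biotinylated cRNA was made from total RNA of 9 samples for Illumina bead arrays, per the labels. The authors deposited intensities per probe without normalization. Beside each intensity stands a detection value, per the file headers a p-value; it rises with the signal, so this deposited fraction was subtracted from 1. A series matrix of log2 values, deposited by the authors, served as an alternative; lumi 2.10.0 and R 2.15.3 stand in the submitters' processing notes, and how they were used is not given in the sources seen. Of 45281 probes, 34885 had 1 gene symbol, 18 several and 10378 none; symbols were updated to RefSeq GRCm38.p6 through the Entrez ID for 34807 and the accession for 11, and 67 kept theirs. The deposited intensities were corrected for background (normexp, using detection p-values), raised by an offset of 16, put through quantile normalization and log2 transformed (limma 3.58.1, R 4.3.3, version 1.17.8 of data.table; figures with Python 3.11.15, pandas 2.3.3 and matplotlib 3.10.9). Probes detected at p under 0.05 on all 3 arrays of a group were kept (18180). The brightest by its mean over all 9 arrays stood for its gene. For 3836 genes with more than 1 detected probe, probes of 218 were called in opposite directions. A linear model with a mean per group was fitted to all 9 arrays (lmFit, eBayes, two-sided, Benjamini-Hochberg). For an at-least fold, the dim group was given, per array, the lowest detected signal or the probe's own if higher. The fit was also run on simulated data with independent errors, few changed genes and no background or normalization step. The data here differ in each of these, so that run cannot vouch for the calls.

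Members and gene lists were chosen with earlier results of these data known, so that counts over a list are descriptions. The 44 lists hold 1179 entries, of which 1091 had a probe and 926 were tested. Named genes are, among called genes without overlap between groups, the 12 that rose most and the 12 that fell most, leaving out clone, predicted and locus names and requiring detection on every array of the higher group; both genes of each isoform pair, the 6 members of each list with the largest differences and those called against its majority, and 20 genes named singly. Gene symbols outside this rule are said to be chosen later. Replicate numbers were not used to pair the samples. Same-numbered arrays deviated from their group means with correlations of 0.12, -0.06 and -0.01. Such low values cannot show whether same-numbered samples belonged together, and the labels do not say.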

Additional observations from a re-analysis of the deposited data

How the results depend on the processing

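Of the 7540 calls, 3590 were higher in adult cardiomyocytes and 3950 lower, or 47.6% higher, and the split followed the scaling. Scaling to the array median gave 2157 higher (29.4%) and 2096 genes at least 4-fold lower, and no normalization between arrays gave 1874 higher (26%), 788 at least 4-fold higher and 2310 at least 4-fold lower. Without background correction the 4-fold counts were 671 higher and 445 lower, and in the series matrix 623 and 383. Genes detected on all 6 arrays gave 4975 calls, 2266 of them higher, with 603 and 609 past 4-fold; fewer genes (6639) were tested there. Leaving out 1 array at a time gave 7131 to 7365 calls, 3387 to 3493 higher and 3744 to 3872 lower, with 1226 to 1291 and 1028 to 1061 past 4-fold. The replicate block gave 7528 calls (3575 higher, 3953 lower) and 1265 and 1051 past 4-fold, though whether the numbers pair the samples is unknown. Among the genes named in the text, direction turned with median scaling for Bub3 (-0.0232), Ccnd3 (-0.15), Cdkn2c (-0.37), Lman1 (-0.40), Psmb10 (-0.41), Psme2 (-0.33) and Sec31a (-0.18), with no normalization between arrays for Bub3 (-0.15), Ccn2 (-0.0875), Ccnd3 (-0.28), Cdkn2c (-0.50), Cdkn2d (-0.12), Col6a2 (-0.067), Lman1 (-0.53), Psmb10 (-0.54), Psme2 (-0.46) and Sec31a (-0.31), and with the mean of the detected probes for Cdkn2c (-0.11) and Flnc (-0.0118). Of 2891 values of 201 named genes under all alternatives, 2817 kept direction and side of the threshold, 47 lost the call, 8 gained it and 19 turned. With 1 array left out, limma's adjusted p for Psmb10 was 0.059, 0.066 and 0.17 without adult array 1, 2 or 3 and 0.11 and 0.14 without eCSC array 2 or 3, and it was 0.066 with the replicate block, which otherwise ended only the call of Krt7 (0.053) among the named genes. Calls also ended for Cdkn2c without adult array 1 or 2 (0.056 and 0.081), Psme2 without adult array 2 or eCSC array 2 (0.075 and 0.059), Ccn2 without eCSC array 2 (0.056), and the small rises of Aldh1a2 (0.12 to 0.23) and Krt7 (0.060 to 0.14) lost theirs without 3 and 4 of the arrays in turn. Cdkn1a was called without adult array 2 (0.0033) and Uty without adult array 1 (0.019). Signal over background limits the size of differences against undetected groups, and 3 arrays per group limit the precision.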

Other observations

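Some genes outside the lists, chosen after their values were seen, showed further contrasts. Rpl3l, the striated muscle form of a protein of the large ribosomal subunit, stood at 13.45, 13.34 and 13.25 in adult cardiomyocytes and was undetected at 4.38, 4.38 and 4.46 in eCSCs, at least 390-fold higher (8.95 ± 0.17 SE, limma adjusted p = 1.35e-14). Rpl3, its general form, was at 11.23, 10.95 and 11.48 in adult cells, against 14.01, 14.00 and 13.97 in eCSCs. Of 13 H2A histone genes tested, 11 fell and 2 rose. H2ac15 stood at 5.99, 6.49 and 6.58 in adult cells and at 12.66, 12.13 and 11.23 in eCSCs, lowest on replicate 3, while H2ac18 stood at 10.67, 10.91 and 10.92 in adult cells, against 5.93, 5.37 and 7.33 in eCSCs, highest on replicate 3. H2A genes are near-identical copies, and probes can read more than 1 of them.

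Circadian genes varied within both groups. Of 12 tested, 4 rose, 3 fell and 5 were not called. Dbp, a transcription factor with a strong daily rhythm, was at 9.59, 10.55 and 11.45 in adult cells and at 6.42, 6.10 and 8.44 in eCSCs, and Per2 was at 5.28, 6.12 and 7.22 in adult cells and at 6.95, 7.86 and 8.52 in eCSCs. The time of day of sampling is not given in the labels. Over all genes tested the SD between replicates exceeded 0.5 for 550 genes in adult cells and for 452 in eCSCs.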
